A study of Mus musculus with 42 samples.

Results

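The 9 genes described here serve the step of homologous recombination in which a broken DNA end invades an intact duplex. They were Dmc1, Psmc3ip, Mnd1, Brca2, Palb2, Meiob, Spata22, Hsf2bp and Rad51ap2, and they were taken by name, with gene IDs matched to symbols, from a count table of 27179 genes. All 9 were in the table, and all 9 passed the filter on low counts in every comparison. The table holds RNA-seq of testicular cells from C57BL/6J male mice at 10 days post-partum (dpp), in 12 libraries and 4 groups of 3. All mice carried Ddx4-Cre, a recombinase driven by a germ cell promoter, and a loxP-flanked allele of Chd8, which encodes a chromatin remodeler. Control mice were Ddx4-Cre/Chd8+/F and mutant (CKO) mice were Ddx4-Cre/Chd8F/-, so that the controls kept an allele that Cre cannot delete and the mutants did not. Cells were enriched with magnetic beads, first for c-Kit, a receptor of differentiating spermatogonia, and then, from the cells that passed through, for Thy1, an antigen of undifferentiated spermatogonia. The methods speak of 3 pups for each analysis and do not say whether a library is 1 animal, so p-values measure the spread between libraries.

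In meiotic prophase the SPO11 complex cuts the chromosomes, the ends are resected to single strands, and recombinase is loaded onto them in place of the protein RPA. DMC1 is the meiotic recombinase, and the dimer of PSMC3IP (HOP2) and MND1 helps it to pair the strand with a homologous duplex. BRCA2 brings recombinase to the strand, PALB2 links BRCA2 to BRCA1, and HSF2BP binds BRCA2 in germ cells. MEIOB and SPATA22 form a meiotic complex that binds single-stranded DNA with RPA. RAD51AP2 is a protein of the testis. BRCA2 and PALB2 also act in the repair of dividing somatic cells, whereas DMC1, MEIOB, SPATA22 and HSF2BP are best known from meiosis.

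The gene models are given on the mm10 build. Dmc1 (gene ID 13404) was at chr15:79561500-79605084, Brca2 (12190) at chr5:150522623-150569749, Palb2 (233826) at chr7:122107265-122132946 and Meiob (75178) at chr17:24804382-24839787. Spata22 (380709) was at chr11:73329741-73346044, Hsf2bp (74377) at chr17:31944769-32034508, Rad51ap2 (209550) at chr12:11456079-11462928, Mnd1 (76915) at chr3:84087934-84155786 and Psmc3ip (19183) at chr11:101092141-101095435. Counts were made over exons without regard to strand. Psmc3ip shared 67 exon bases, 6.89% of its exon length, with its neighbour Mlx, and the other 8 shared none with another gene of the table. In the GENCODE M21 transcripts, the longest stretch common to Psmc3ip and Mlx was 385 bases, 29.8% of the longest Psmc3ip transcript. Mnd1 has a retrotransposed copy, Mnd1-ps, which matched 94.2% of the longest Mnd1 transcript at 97.1% identity. Mnd1-ps was listed with 0 to 3 counts per library against 281 to 507 for Mnd1, and how many Mnd1 reads were lost because they map to both is not known. Spata22 shares 1025 bases at 100% identity with Gm49340, a read-through gene of the same annotation, and reads counted for Spata22 may include its reads.

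Promoter sequence was held for 8 of the 9 genes (RefSeq, GRCm38.p6, 250 bases before to 50 after the transcription start), and Meiob was without an entry. The stretch from 250 bases before to 10 after the start is shown for the 5 genes with an entry that were called lower in CKO c-Kit+ cells. It is also shown for Mnd1, which was not called. Psmc3ip and Palb2, lower there but under the minimum fold change for a call, are not shown. Capitals mark matches, on either strand, of CACGTG (E-box), TTCCCGC (E2F core), CNCCTCAG (STRA8 site), AACNGT (MYB core), CCAAT or GGGCGG (GC box).
Dmc1, chr15:79605100-79605359, minus strand: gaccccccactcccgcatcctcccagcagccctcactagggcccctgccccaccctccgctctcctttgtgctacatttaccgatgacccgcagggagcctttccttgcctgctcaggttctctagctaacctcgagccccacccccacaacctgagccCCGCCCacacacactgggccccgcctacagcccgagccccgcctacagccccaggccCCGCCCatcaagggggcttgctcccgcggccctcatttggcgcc
Brca2, chr5:150522371-150522630, plus strand: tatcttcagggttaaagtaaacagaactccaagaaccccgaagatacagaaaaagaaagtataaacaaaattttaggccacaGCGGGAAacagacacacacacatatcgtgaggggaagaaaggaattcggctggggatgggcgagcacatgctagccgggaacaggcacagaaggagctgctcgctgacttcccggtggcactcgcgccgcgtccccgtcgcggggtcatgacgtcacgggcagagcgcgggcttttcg
Spata22, chr11:73329491-73329750, plus strand: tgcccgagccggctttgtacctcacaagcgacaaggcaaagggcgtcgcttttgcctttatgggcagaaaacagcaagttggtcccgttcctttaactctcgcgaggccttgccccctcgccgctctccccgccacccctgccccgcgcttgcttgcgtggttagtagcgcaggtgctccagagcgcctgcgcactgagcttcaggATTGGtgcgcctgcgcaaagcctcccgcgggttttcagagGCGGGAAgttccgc
Hsf2bp, chr17:32034499-32034758, minus strand: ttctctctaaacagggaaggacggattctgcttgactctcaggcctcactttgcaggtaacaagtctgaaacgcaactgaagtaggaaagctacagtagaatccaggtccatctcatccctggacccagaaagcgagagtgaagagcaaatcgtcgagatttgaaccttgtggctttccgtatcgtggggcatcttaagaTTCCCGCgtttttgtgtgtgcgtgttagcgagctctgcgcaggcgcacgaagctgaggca
Rad51ap2, chr12:11455805-11456064, plus strand: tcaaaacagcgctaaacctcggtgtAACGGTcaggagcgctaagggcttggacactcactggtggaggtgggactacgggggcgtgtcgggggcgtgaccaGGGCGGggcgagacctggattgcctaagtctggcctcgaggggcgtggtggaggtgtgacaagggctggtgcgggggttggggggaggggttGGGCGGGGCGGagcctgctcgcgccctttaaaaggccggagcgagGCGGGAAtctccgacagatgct
Mnd1, chr3:84155777-84156036, minus strand: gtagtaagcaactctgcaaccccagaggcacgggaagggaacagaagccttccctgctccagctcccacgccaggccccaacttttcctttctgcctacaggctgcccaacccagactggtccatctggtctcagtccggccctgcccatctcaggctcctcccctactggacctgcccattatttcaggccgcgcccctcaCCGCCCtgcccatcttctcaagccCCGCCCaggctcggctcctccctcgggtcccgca

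Over the whole 300 bases, the E2F core was found in 4 of the 8 promoters (Brca2, Spata22, Hsf2bp and Rad51ap2) and in 4.6% of all 32851 promoters of that length. It lay 12 to 6 bases before the start in Rad51ap2, across the start in Spata22, from 50 to 44 bases before it in Hsf2bp and from 168 to 162 bases before it in Brca2. The GC box was found in 4 (Dmc1, Palb2, Rad51ap2 and Mnd1), against 35.7% of all promoters. The CCAAT letters were found in 3 (Spata22, Psmc3ip and Palb2), against 37.4%, and the MYB core in 2 (Rad51ap2 and Hsf2bp), against 26.1%. Neither the E-box (7.15% of all promoters) nor the STRA8 site (7.94%) was found in any of the 8, which says only that these letters are not in these windows. The GC content of the 8 ran from 53.7% in Hsf2bp to 69% in Dmc1, where the median of all promoters was 52.7%.

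Library totals ran from 32266861 to 45396233 counts, and the 9 genes together held 6313 to 24620 counts of a library. Both reads of a fragment were counted, so independent fragments are fewer than counts. Chd8 itself was not called different between genotypes (log2 fold change 0.03 ± 0.09 SE in Thy1+, FDR = 0.896, and 0.06 ± 0.07 in c-Kit+, FDR = 0.491, edgeR), and counts over the whole gene do not show whether the loxP-flanked exons were lost. Between the control populations, Kit was higher in c-Kit+ cells by 1.19 ± 0.25 on the log2 scale, and the log2 fold change of Thy1 was −4.22 ± 0.28. Levels below are CPM, the counts of a gene relative to the TMM-normalized total of its library.

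In c-Kit+ cells most of the strand invasion genes were lower in the mutant than in the control, and Psmc3ip, Palb2 and Mnd1 were not called. By edgeR's quasi-likelihood test, 6 of the 9 (Meiob, Rad51ap2, Dmc1, Hsf2bp, Spata22 and Brca2) passed FDR under 0.05 with a log2 fold change beyond 0.5 in size, all lower, whereas 7.41% of the 17134 genes tested were called lower. The median log2 fold change of the 9 was −1.47, beside 0.01 over all genes tested. In 8 of the 9, all but Mnd1, every CKO library was below every control library, against 20.6% of all genes. In bulk RNA, fewer cells that express a gene and less RNA per cell cannot be told apart.

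Among the recombinase and its partners, Dmc1 was at 81.9, 142 and 108 CPM in the control c-Kit+ libraries and at 35.8, 36.9 and 32.4 CPM in the CKO libraries. The CKO libraries lay close together, and every control library was far above the highest of them. Dmc1 fell by 1.72 ± 0.17 (SE) on the log2 scale, a 3.29-fold difference (FDR = 0.000175, edgeR). Psmc3ip, its HOP2 partner, was at 27.7, 25.1 and 26.3 CPM in controls and at 20.8, 22.8 and 20.6 CPM in CKO. These groups did not overlap either, but the log2 difference of −0.36 ± 0.09 (FDR = 0.0121, edgeR) was under the minimum for a call. Mnd1, the other subunit of that dimer, was at 9.87, 9.87 and 8.16 CPM in controls and at 8.77, 8.88 and 9.18 CPM in CKO, with overlapping groups and a log2 difference of −0.11 ± 0.13 (FDR = 0.52, edgeR). Of the meiotic recombinase and the dimer that assists it, Dmc1 alone was called lower.

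**Figure D1:**
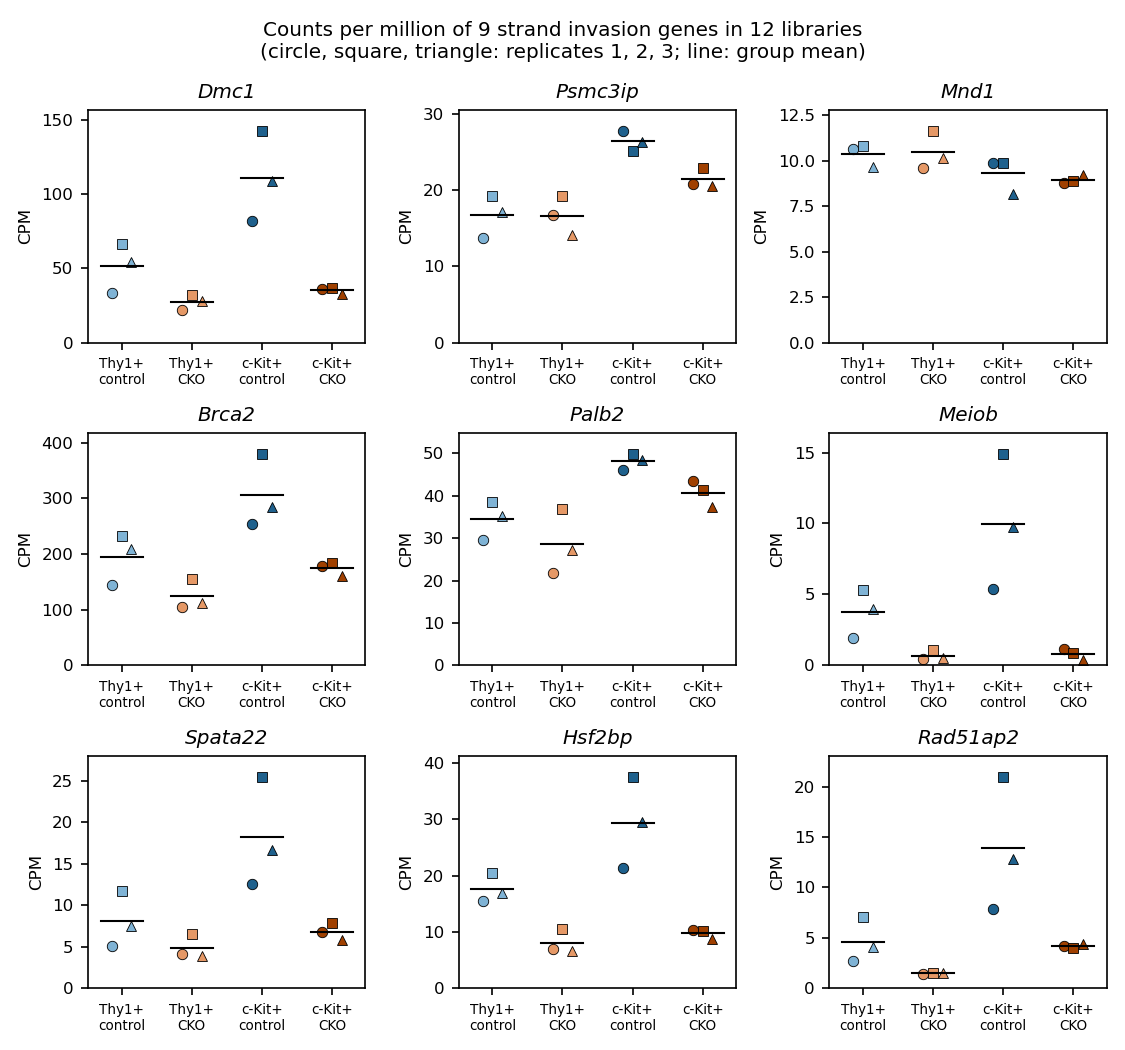
CPM (vertical axis, from 0) of each of the 9 genes in the 12 libraries, by population and genotype, with circles, squares and triangles for replicates 1, 2 and 3 and a line for the group mean. The mean of the c-Kit+ controls is the highest in all but Mnd1, where all 12 libraries lie between 8.16 and 11.6 CPM, and replicate 2 is the highest c-Kit+ control in all but Psmc3ip and Mnd1.

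The loading factors differed among themselves. Brca2 was at 253, 379 and 285 CPM in control c-Kit+ libraries and at 179, 184 and 160 CPM in CKO, and fell by 0.87 ± 0.13 on the log2 scale (FDR = 0.000732, edgeR). Its germ cell partner Hsf2bp went from 21.3, 37.4 and 29.4 CPM to 10.3, 10.2 and 8.80 CPM, and fell by 1.64 ± 0.19 (FDR = 0.000267, edgeR). Palb2, which joins BRCA2 to BRCA1, was at 46.2, 49.7 and 48.4 CPM in controls and at 43.4, 41.4 and 37.3 CPM in CKO, a log2 difference of −0.30 ± 0.08 (FDR = 0.0165, edgeR) that was under the minimum for a call. For all 3 the groups did not overlap.

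The pair that binds single-stranded DNA fell unequally. Meiob was at 5.39, 14.9 and 9.73 CPM in control c-Kit+ libraries and at 1.12, 0.901 and 0.376 CPM in CKO, where 13 to 38 counts per library stand behind it. It fell by 3.69 ± 0.43 on the log2 scale, a 12.9-fold difference and the largest of the 9 (FDR = 0.000289, edgeR). Its partner Spata22 went from 12.5, 25.4 and 16.6 CPM to 6.82, 7.81 and 5.76 CPM, and fell by 1.47 ± 0.24 (FDR = 0.00107, edgeR). Rad51ap2 went from 7.89, 20.9 and 12.8 CPM to 4.19, 3.99 and 4.37 CPM, and fell by 1.79 ± 0.30 (FDR = 0.00124, edgeR). In Meiob, Spata22 and Rad51ap2 the second control was the highest library and the first the lowest control. Without the second control, Meiob fell by 3.30, Rad51ap2 by 1.37 and Brca2 by 0.69 on the log2 scale, and 6 of the 9 genes were called with any of the 6 c-Kit+ libraries left out.

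In Thy1+ cells 0 of the 9 genes, and 0 (0%) of all 17416 genes tested, were called between genotypes by edgeR's quasi-likelihood test without a block. In that fit 2151 genes had an unadjusted p under 0.05, and results with a block on replicate number are given below. Values are therefore given without a verb of change. Meiob was at 1.90, 5.34 and 3.94 CPM in control Thy1+ libraries and at 0.435, 1.1 and 0.519 CPM in CKO, a log2 difference of −2.41 ± 0.50 (FDR = 0.194, edgeR). Hsf2bp was at 15.4, 20.4 and 16.9 CPM and at 6.95, 10.5 and 6.68 CPM, a difference of −1.12 ± 0.22 (FDR = 0.183, edgeR). In both genes the groups did not overlap. Rad51ap2 was at 2.66, 7.11 and 4.14 CPM in controls and at 1.47, 1.56 and 1.56 CPM in CKO (−1.60 ± 0.37, FDR = 0.23, edgeR), and Dmc1 at 33.2, 66.4 and 54.1 CPM and at 21.8, 32.2 and 28.0 CPM (−0.90 ± 0.26, FDR = 0.298, edgeR). These groups did not overlap either, which makes 4 of 9 genes with every CKO library lower, against 10.7% of all genes.

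The other 5 overlapped in Thy1+. Brca2 was at 144, 232 and 209 CPM in controls and at 105, 155 and 112 CPM in CKO (log2 difference −0.64 ± 0.21), and Spata22 at 5.12, 11.7 and 7.5 CPM and at 4.07, 6.52 and 3.86 CPM (−0.74 ± 0.35). Palb2 was at 29.6, 38.4 and 35.3 CPM and at 21.9, 36.9 and 27.3 CPM (−0.26 ± 0.20). Within each replicate number, CKO was below control in all 3 of these genes. Psmc3ip, at 13.7, 19.3 and 17.2 CPM and at 16.7, 19.2 and 14.1 CPM (0.0027 ± 0.18), and Mnd1, at 10.6, 10.8 and 9.63 CPM and at 9.59, 11.6 and 10.1 CPM (0.02 ± 0.16), differed by far less than their errors. Replicate 2 was the highest and replicate 1 the lowest control Thy1+ library in every gene but Mnd1.

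Libraries of the same replicate number deviated together in Thy1+, and a fit blocked on that number called 6 genes lower (Dmc1, Brca2, Meiob, Spata22, Hsf2bp and Rad51ap2), where 4.92% of all genes were called lower in that fit. The log2 fold changes with the block were −0.86 ± 0.09 for Dmc1 (FDR = 5.64e-06, edgeR), −0.63 ± 0.07 for Brca2 (FDR = 1.04e-05) and −1.14 ± 0.12 for Hsf2bp (FDR = 7.86e-06). They were −2.42 ± 0.30 for Meiob (FDR = 2.54e-05), −1.5 ± 0.27 for Rad51ap2 (FDR = 0.00068) and −0.71 ± 0.17 for Spata22 (FDR = 0.00503). The standard errors of these 6 genes were smaller with the block. Without it, the edgeR exact test called 3 members (Meiob, Hsf2bp and Rad51ap2) and DESeq2 those and Dmc1.

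**Figure D2:**
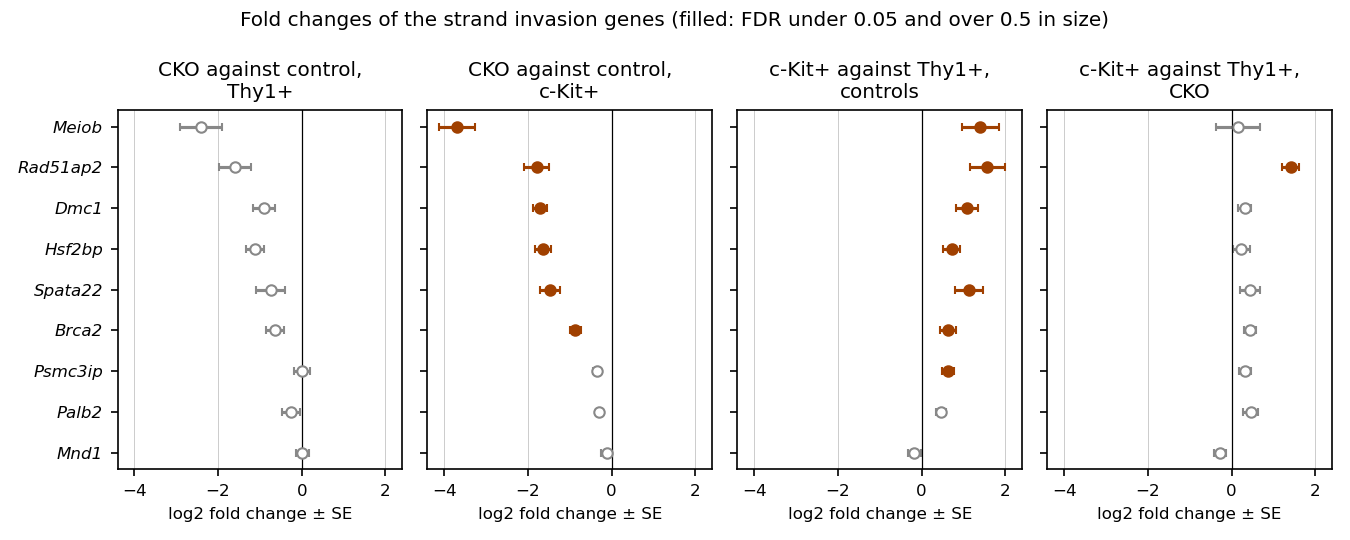
Log2 fold change (horizontal axis, bars ± SE) of the 9 genes in the 4 pairwise comparisons, each from its own fit of 3 against 3 libraries without a block, with filled points for called genes. The called points are 0, 6, 7 and 1 of 9 from left to right, and Meiob reaches −3.69 in c-Kit+ and −2.41 in Thy1+.

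Whether the genotype difference was itself different between populations was tested as an interaction over all 12 libraries. It was called for 0 of the 9 genes and for 0 (0%) of 18002 genes by edgeR, with 1804 genes at an unadjusted p under 0.05, and DESeq2 called 56 genes and 0 of the 9. With the block edgeR called 446 genes and 0 of the 9. The difference (c-Kit+ less Thy1+) was −0.76 ± 0.34 for Dmc1 (unadjusted p = 0.0444, FDR = 0.488, edgeR), −1.23 ± 0.73 for Meiob (FDR = 0.601) and −0.67 ± 0.46 for Spata22 (FDR = 0.66). For Rad51ap2 it was −0.13 ± 0.52, for Brca2 −0.17 ± 0.27 and for Mnd1 −0.07 ± 0.18. The genotype differences of these genes are therefore not shown to differ between Thy1+ and c-Kit+ cells, nor to be alike.

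In controls, 7 of the 9 genes were higher in c-Kit+ than in Thy1+ cells, whereas 7.08% of the 17350 genes tested were called higher. They were Rad51ap2 (log2 fold change 1.57 ± 0.42, FDR = 0.0198, edgeR), Meiob (1.41 ± 0.43, FDR = 0.0334), Spata22 (1.14 ± 0.34), Dmc1 (1.09 ± 0.26), Hsf2bp (0.72 ± 0.21), Psmc3ip (0.63 ± 0.14) and Brca2 (0.63 ± 0.19). Palb2 differed by 0.46 ± 0.12 (FDR = 0.0154), under the minimum for a call, and Mnd1 by −0.18 ± 0.16 (FDR = 0.39). The lowest c-Kit+ control was above the highest Thy1+ control in 8 of 9 genes, against 24.8% of all genes, and the median log2 fold change of the 9 was 0.72 beside −0.03 over all genes. With a block on replicate number 7 of the 9 were also called higher, where 5231 of the 17350 genes were called in either direction. The calls without the block stood close to the threshold. Without c-Kit+ control replicate 2 only Psmc3ip was called, without Thy1+ control replicate 3 there were 3 calls (Dmc1, Psmc3ip and Palb2), and without c-Kit+ control replicate 3 also 3 (Dmc1, Psmc3ip and Rad51ap2). All 8 genes other than Mnd1 kept a positive difference with each of the 6 libraries left out. These levels are per library total. The control populations also differed in the levels of germ cell and somatic markers, and values against germ cell markers are given below.

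In CKO cells the difference between populations was called for Rad51ap2 alone (1.41 ± 0.21, FDR = 0.00153, edgeR), 1 of 9 genes, where 5.03% of the 17346 genes tested were called higher. Its CKO c-Kit+ libraries, at 3.99 to 4.37 CPM, were all above the CKO Thy1+ libraries, at 1.47 to 1.56 CPM. Meiob showed 0.16 ± 0.52 (FDR = 0.833), Dmc1 0.31 ± 0.15 (FDR = 0.142), Hsf2bp 0.24 ± 0.20 (FDR = 0.399) and Spata22 0.45 ± 0.24 (FDR = 0.193), and the groups of Meiob, Spata22 and Hsf2bp overlapped. The c-Kit+ libraries were all above the Thy1+ libraries in Rad51ap2, Dmc1, Psmc3ip, Brca2 and Palb2, 5 of 9 against 26.7% of all genes, and all below them in Mnd1 (−0.27 ± 0.14, FDR = 0.181). Without Thy1+ CKO replicate 2, which was the highest or level with the highest CKO Thy1+ library in all 9 genes, 4 were called (Brca2, Palb2, Spata22 and Rad51ap2). The CKO libraries used here are also those of the genotype comparisons, so these values are set side by side and not counted as separate evidence.

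Compared per length, as CPM divided by exon length in kilobases (RPKM), Dmc1 was the highest of the 9 in control c-Kit+ cells at 50.5 ± 13.7 RPKM (SD, n = 3), with 37.4 RPKM in its lowest library. Brca2 (28.5 ± 6.09) and Psmc3ip (27.1 ± 1.33) followed and overlapped each other, then Spata22 (14.3 ± 5.17), Palb2 (12.8 ± 0.482), Mnd1 (10.6 ± 1.13) and Hsf2bp (10.2 ± 2.82). Spata22 overlapped all 3 that followed it, and Hsf2bp overlapped both Palb2 and Mnd1, but the Palb2 libraries were all above the Mnd1 libraries. Meiob (5.87 ± 2.79) overlapped Hsf2bp above it and Rad51ap2 (4.37 ± 2.08) below it. In CKO c-Kit+ cells Psmc3ip was highest at 22.0 ± 1.29 RPKM, and Brca2 (16.2 ± 1.18) and Dmc1 (16.0 ± 1.07) overlapped below it. Palb2 (10.9 ± 0.839) and Mnd1 (10.2 ± 0.241) overlapped next, and Spata22 (5.34 ± 0.806), Hsf2bp (3.41 ± 0.297), Rad51ap2 (1.32 ± 0.0598) and Meiob (0.470 ± 0.225) each stood apart from its neighbours in RPKM. The DMC1 transcript thus stood above that of its cofactor PSMC3IP in every control c-Kit+ library and below it in every CKO one. In Thy1+ cells Dmc1 led in controls at 23.4 ± 7.66 RPKM, overlapping Brca2 and Psmc3ip, and Psmc3ip led in CKO at 17.1 ± 2.65, overlapping Dmc1.

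**Figure D3:**
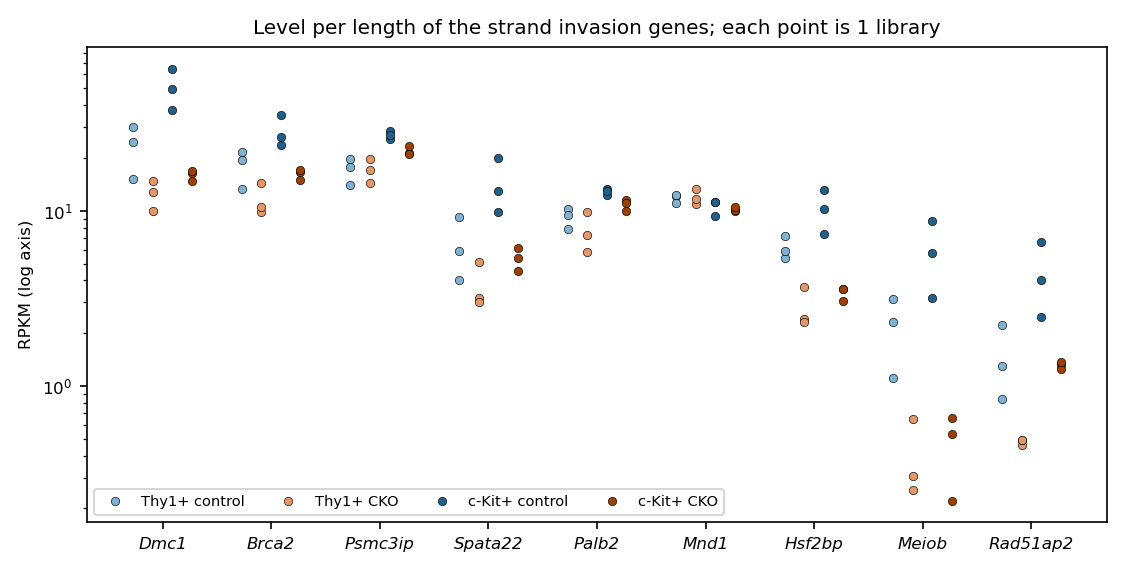
RPKM (vertical log axis) of the 9 genes, ordered by their control c-Kit+ mean, with 1 point per library and a colour per group. Dmc1 spans 37.4 to 64.8 RPKM in c-Kit+ controls and 14.8 to 16.8 RPKM in c-Kit+ CKO, while Mnd1 stays between 9.34 and 13.3 RPKM in all 12 libraries.

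Markers of germ cells, of meiotic entry and of somatic cells were measured in the same libraries. Of 8 germ cell markers (Dazl, Piwil2 and Ddx4 the most abundant), 1 was called lower in CKO c-Kit+ cells, where 7.41% of all genes were. In Thy1+ 0 were called (1 lower with the block, against 4.92%). All 8 were below 0 in c-Kit+, against 49% of all genes, and 5 did not overlap, against 20.6%. Their summed level was 3103 to 3703 CPM in control and 2426 to 2854 CPM in CKO c-Kit+ cells. In Thy1+ it was 1834 to 2799 CPM in control and 1428 to 2387 CPM in CKO. The 19 early meiotic prophase markers were synaptonemal complex, cohesin, HORMA domain and break formation genes, with Meioc and Ythdc2. Of these, 18 were called lower in c-Kit+ (against 7.41% of all genes) and 0 in Thy1+ (16 with the block, against 4.92%). Their sum was 2116 to 3323 CPM in control c-Kit+, 1099 to 1193 in CKO c-Kit+, 901 to 1688 in control Thy1+ and 588 to 986 CPM in CKO Thy1+, with replicate 2 highest and replicate 1 lowest in both control groups, as in most of the 9 genes. Markers of 8 somatic types were also tested (Sertoli and Leydig cells, myoid and stromal cells, endothelium, macrophages, mast cells and erythroid cells). In CKO c-Kit+ cells 31 of 47 were called higher and 0 lower. Of all 17134 genes, 3812 were called in either direction there, 1270 of them lower. In Thy1+ 0 of 48 were called. With the block 12 were called higher, where 1414 of all 17416 genes were called in either direction, 856 of them lower. Their sum was 3449 to 4625 CPM in control and 7035 to 8635 CPM in CKO c-Kit+, and 12322 to 16907 and 14249 to 21464 CPM in Thy1+. No marker of these lists was at 0 in any library but Hba-a2 and Hbb-bs of the erythroid list. Of 10 markers of undifferentiated spermatogonia, 0 were called in Thy1+ (9 lower with the block, against 4.92% of all genes). Their sum was 612 to 862 CPM in control and 420 to 516 CPM in CKO Thy1+ cells. In c-Kit+ 9 of them were tested, and 1 was called higher, beside the counts over all genes given for the somatic markers. Of 6 markers of differentiating spermatogonia, 0 were called in Thy1+ (2 lower with the block, against 4.92% of all genes). In c-Kit+ 2 were called lower, against 7.41%. The part of these shifts in the values of the 9 genes was not tested beyond the ratios that follow.

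Set against the summed germ cell markers of the same library, 6 genes were lower in CKO c-Kit+ cells without overlap, where 5.3% of all genes tested were. The log2 ratio of the means was −3.34 for Meiob, −1.38 for Rad51ap2, −1.34 for Dmc1, −1.27 for Hsf2bp, −1.1 for Spata22 and −0.50 for Brca2. Psmc3ip (−0.01), Palb2 (0.06) and Mnd1 (0.25) overlapped, and the median ratio was −1.1 over the 9 genes and 0.37 over all genes. On this scale in Thy1+ cells, Meiob (−2.15), Rad51ap2 (−1.16), Hsf2bp (−0.82) and Brca2 (−0.31) did not overlap, with every CKO library below the controls, where 3.06% of all genes were lower in that way. Between control populations, the means against these markers were compared in relative units, Thy1+ first. They were 7.66 and 8.05 for Psmc3ip, 88.6 and 91.7 for Brca2 and 8.06 and 8.80 for Hsf2bp. Palb2 was at 15.9 and 14.6, Mnd1 at 4.83 and 2.82, Dmc1 at 23.0 and 33.2 and Spata22 at 3.58 and 5.41. Meiob was at 1.64 and 2.96 and Rad51ap2 at 2.02 and 4.10. The control libraries overlapped in every gene but Mnd1, in which c-Kit+ was lower. In Rad51ap2 the highest Thy1+ library (2.539) was just above the lowest c-Kit+ library (2.531). The share of all genes that overlap in this way was not counted, so no reading is drawn from the overlaps.

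The mean early meiotic sum was smaller in CKO than in control, with overlap in Thy1+, and most genes stood higher against it, with a median log2 ratio over all genes of 1.28 in c-Kit+ and 0.83 in Thy1+. In c-Kit+, Meiob (−2.33), Dmc1 (−0.39) and Hsf2bp (−0.31) were below their controls without overlap on this scale, 3 of 9 genes where 0.636% of all genes were. The sum is made of genes that were themselves lower in CKO, so few genes can stand lower against it. The shares on this scale are therefore not read as enrichment, here or in Thy1+. Rad51ap2 (−0.41) and Spata22 (−0.13) overlapped. Brca2 (0.45), Palb2 (0.98), Psmc3ip (0.90) and Mnd1 (1.16) were above their controls without overlap, as were 90.2% of all genes, and each of these ratios was below the median of all genes. In Thy1+, Meiob (−1.60) and Rad51ap2 (−0.65) were below without overlap, where 0.672% of all genes were, and Psmc3ip (0.84) and Palb2 (0.53) were above without overlap, where 26.9% of all genes were. Hsf2bp (−0.33), Dmc1 (−0.02), Spata22 (0.12), Brca2 (0.20) and Mnd1 (0.80) overlapped. The Meiob libraries of CKO were thus all below those of the controls on each of the 3 scales in both populations, although its Thy1+ difference was not called without the block (FDR = 0.194, edgeR).

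**Figure D4:**
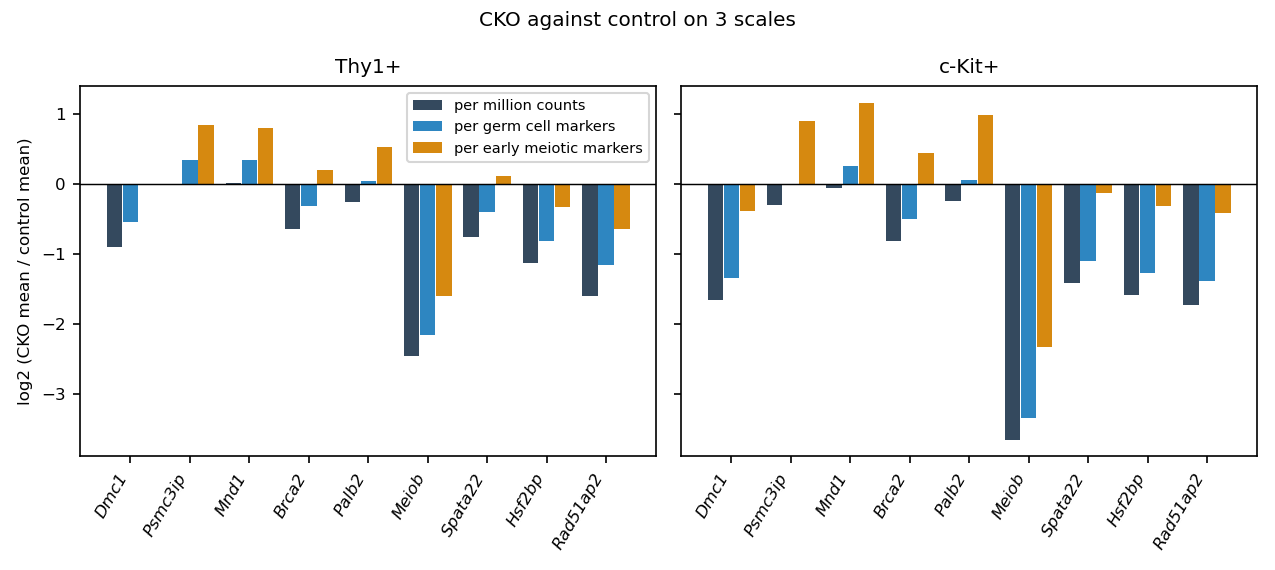
Log2 ratio of the CKO mean to the control mean (vertical axis, 3 libraries each, no error drawn) for the 9 genes in Thy1+ and c-Kit+ cells, as CPM, per summed germ cell markers and per summed early meiotic markers. In c-Kit+ the bars of Meiob are −3.64, −3.34 and −2.33 on the 3 scales, and those of Mnd1 −0.06, 0.25 and 1.16.

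Over the 12 libraries, the 9 genes followed different courses. Likeness was measured as the root mean square difference of log2 CPM after each gene was centred on its own mean, and it describes libraries that share groups and depth. The smallest differences were those of Psmc3ip and Palb2 (0.18), Dmc1 and Spata22 (0.20) and Dmc1 and Hsf2bp (0.24). The largest was that of Mnd1 and Meiob (1.68). Psmc3ip and Palb2 varied little themselves (SD of log2 CPM 0.32 and 0.34), and Dmc1 and Spata22 more (0.81 and 0.78). Psmc3ip and Mnd1, whose proteins form a dimer, differed by 0.40, which is more than the SD of either (0.32 and 0.13). Meiob and Spata22, whose proteins also bind each other, differed by 1.02, where their SDs were 1.67 and 0.78. Among 14956 other genes, those nearest to Dmc1 were Tesmin (0.13), 4930447C04Rik (0.16) and Tex15 (0.17). Nearest to Spata22 were Hormad2 (0.15), Sycp3 (0.15) and Sycp1 (0.16), and nearest to Hsf2bp were 4930447C04Rik (0.15), Gm773 and BC021767. Nearest to Meiob, whose own log2 CPM varied most (SD 1.67), were Shoc1 (0.45), Gm17266 (0.48) and the gene of ID 210541 (0.51). Nearest to Rad51ap2 were Terb1 (0.30), Nrip3 and Ugt8a. Brca2 was nearest to Zfp518a (0.08), Atf7ip2 and Tex11, Psmc3ip to Tmem41a (0.07), Uba2 and Alkbh5, Palb2 to Sh3bgrl2 (0.07), Gemin5 and Zswim3, and Mnd1, which varied least (SD 0.13), to Mrpl33 (0.06), Cep164 and Zdhhc3. The measure grows with a gene's own variation, so it does not rank the members by how close their neighbours are, nor the pairs of members.

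Of 46 other genes of homologous recombination, 16 were called lower and 0 higher in CKO c-Kit+ cells (11 without control replicate 2). Of all genes tested, 7.41% were called lower there. In 41 of the 46 the log2 fold change was below 0, against 49% of all genes. The median of the 46 was −0.34, beside 0.01 over all genes. The largest falls were those of Mcmdc2 (−2.00 ± 0.29), a meiotic member of the MCM family, and Tex15 (−1.47 ± 0.13), needed for recombinase loading in spermatocytes. The kinase gene Atr (−1.02 ± 0.13), the helicase gene Helq (−1.01 ± 0.10), the recombinase paralog gene Rad51b (−0.79 ± 0.16), Brip1 (−0.73 ± 0.12), Rad54l (−0.73 ± 0.11) and Rmi2 (−0.66 ± 0.15) followed. In Thy1+ cells 0 of the 46 were called, and 0 of all genes. There 34 were below 0, against 46.6% of all genes, and the median was −0.15, beside 0.02 over all genes. With the replicate block 5 were called lower, where 4.92% of all genes were. In controls, 18 of the 46 were higher in c-Kit+ than in Thy1+ cells and 0 lower, where 7.08% of all genes were called higher. Only 7 to 12 were called without c-Kit+ control replicate 2 or 3 or Thy1+ control replicate 1 or 3. In CKO cells 2 of the 46 were called higher, near the share of 5.03% over all genes. There were 16 without Thy1+ CKO replicate 2, and 1 without Thy1+ CKO replicate 3 or any of the 3 c-Kit+ CKO libraries.

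**Figure D5:**
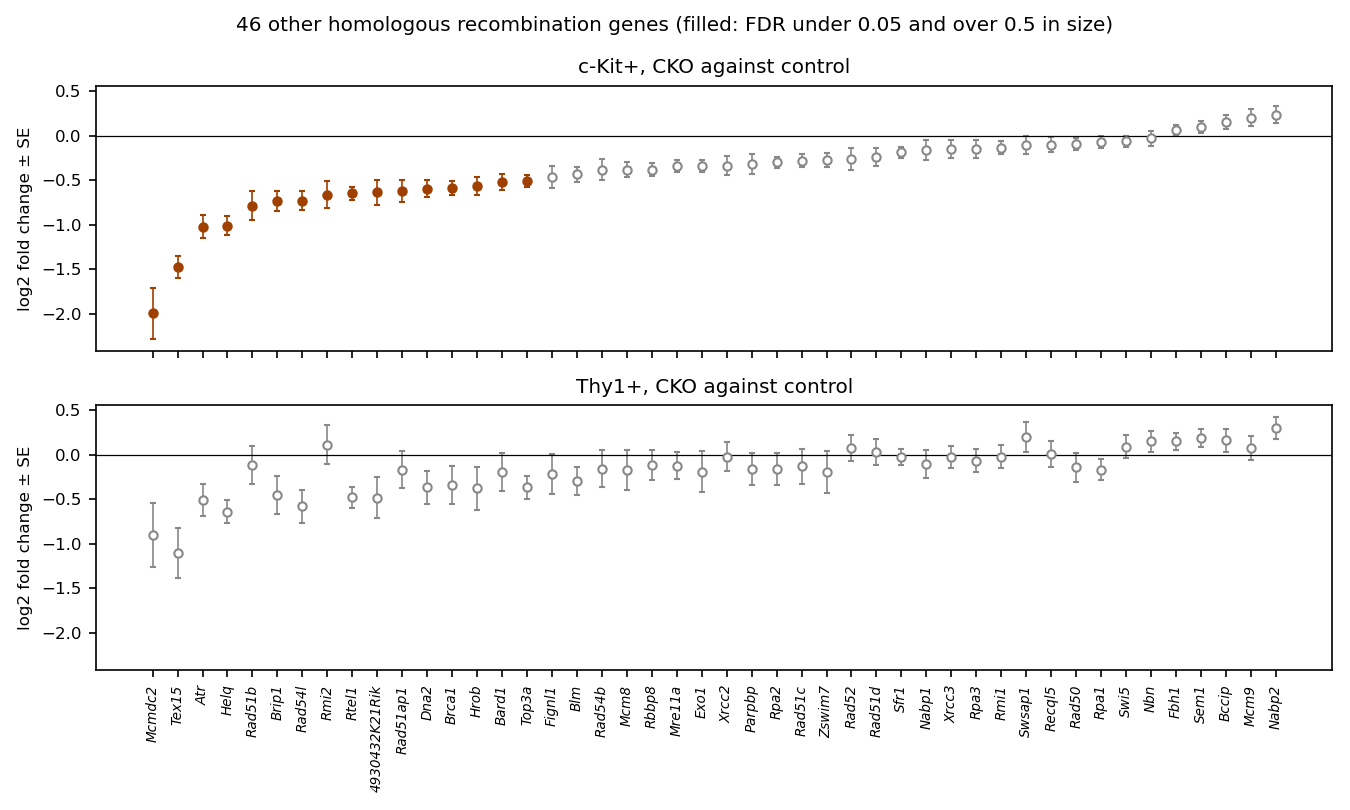
Log2 fold change (vertical axis, bars ± SE) between genotypes of the 46 other homologous recombination genes, ordered by their value in c-Kit+ cells (top) and shown in the same order in Thy1+ cells (bottom), with filled points for called genes. In c-Kit+ 16 points are filled, from −2.00 for Mcmdc2, and in Thy1+ none is, with Tex15 lowest at −1.1.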

How the data were processed

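Total RNA of magnetically enriched Thy1+ and c-Kit+ cells was sequenced as read pairs. Per the methods and the submitters' notes, the authors trimmed reads (Trimmomatic 0.39), aligned them to mm10 (HISAT2 2.1.0) and deposited raw counts per RefSeq gene made with featureCounts, whose file header gives version 2.0.3. The header shows no strand option, and an excess of even values (65.6% to 69.5% of values from 1 to 19) shows that both reads of a pair were counted.

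The members and all gene lists were chosen with earlier results of these data known. Here, counts were tested with edgeR 4.0.16 (R 4.3.3), with TMM normalization, filterByExpr and quasi-likelihood F tests, without a block. FDR is the Benjamini-Hochberg adjusted p over all genes tested. Calls needed FDR below 0.05 together with a log2 fold change larger than 0.5 in size (FDR alone for the interaction). Values are given as estimate ± SE, and levels as mean ± SD of 3 libraries. The named genes were the 9 members, the 3 nearest genes to each, and the 8 genes of the homologous recombination list with the largest called falls in c-Kit+, with Chd8, Kit, Thy1 and the most abundant markers of a list. Log2 CPM used a prior count of 2. Of that list's 48 names, 46 matched a tested gene, and 1 further gene is not reported here. The scripts were tested on simulated data.

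Replicate numbers are shared between groups. Deviations of same-numbered libraries from their group means correlated above 0.1 in every pair in Thy1+ (0.269 to 0.494), c-Kit+ (0.101 to 0.124) and controls (0.134 to 0.298), and in 1 of 3 pairs in CKO (0.022 to 0.203), so the first 3 were taken as paired. The main tests do not use this pairing, which enters only the fits with the block. Where libraries are paired, a fit without the block leaves differences between replicate numbers in the error. In Thy1+ the estimated variation between libraries (common coefficient of variation) was 20.9% without the block and 8.3% with it. There 0 genes were called without the block and 1414 with it. The pairing comes from the data and not from the labels. Replicates of 1 group differed by far more than counting noise (chi-square per degree of freedom 10.8 to 76.7). Alternatives were the exact test, DESeq2 1.42.0, other scalings and filters, no minimum fold change, 1 fit of all 12 libraries, the block and leaving out each library.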

Additional observations from a re-analysis of the deposited data

How the results depend on the processing

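Among the 9 genes, the number called in c-Kit+ between genotypes was 8 with no minimum fold change and 6 under every other alternative and with each library left out. In Thy1+ it was 0, but 3 by the exact test, 4 by DESeq2, 2 with all 12 libraries in 1 fit and 6 with the replicate block, and the cause was not tested. For all genes, the Thy1+ count of 0 became 319, 378, 250 and 1414 under those 4 settings in that order, and 10 without control replicate 1. Between control populations the count of 7 calls was also 7 with the block, and ranged from 1 to 8 with a library left out. Between CKO populations the 1 call became 2 with library size only and 2 with all 12 libraries in 1 fit, and ranged from 1 to 4 with a library left out. The CKO libraries were not taken as paired by replicate number, and a block left 1 call there. For the interaction, the block left 0 of the 9 and called 446 genes against 0, DESeq2 called 56 genes, and 1 gene was called without c-Kit+ control replicate 3. Dropping the minimum fold change moved all calls in c-Kit+ from 3812 to 6710, and leaving out c-Kit+ CKO replicate 2 moved those between CKO populations from 3525 to 2341.

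Among the 9 genes, sign changes were found only in log2 values smaller than their standard errors. In Thy1+, Psmc3ip (0.0027) went to −0.030 with library size only, −0.0013 with no filter, −0.0023 with at least 1 CPM in 3 libraries and −0.0025 with all 12 libraries, and ranged from −0.13 to 0.13 with a library left out. Mnd1 went to −0.014 with library size only and ranged from −0.088 to 0.080. Meiob between CKO populations ranged from −0.13 to 0.69. In the interaction, Palb2 (0.022) went to −0.058 by DESeq2, −0.058 with DESeq2 size factors, −0.0020 with library size only and −0.016 with no filter, and ranged from −0.15 to 0.25 with a library left out. There Mnd1 ranged from −0.19 to 0.015, Brca2 from −0.40 to 0.026 and Rad51ap2 from −0.67 to 0.29. Depth limits Meiob most, with 13 to 48 counts in CKO libraries.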
